A study of Mus musculus with 33 samples.

Results

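The transcripts of 10 genes of mitochondrial fusion and fission were followed in sorted blood-forming cells of old mice. The genes were chosen by name and not by a filter on any measured value, but earlier results of these data were known by then. They were the fusion GTPases Mfn1, Mfn2 and Opa1, the Opa1-cleaving proteases Oma1 and Yme1l1, the fission GTPase Dnm1l, its outer membrane adaptors Fis1, Mff and Mief1, and the inner membrane protein Mtfp1. All 10 symbols were found among the 55376 gene symbols counted. Total RNA was sequenced from hematopoietic stem cells (HSC), common lymphoid progenitors (CLP) and granulocyte-monocyte progenitors (GMP), sorted from the bone marrow of C57BL/6 males aged 24 to 29 months. O-WT mice were untreated, O-NR mice drank nicotinamide riboside (NR, a precursor of NAD+) in their water for 4 to 6 weeks, and O-NR-RC mice had NR withdrawn for 2 months. The 24 libraries of cohort 2 covered the 3 cell types, each with 4 libraries of untreated and 4 of treated mice. The 9 libraries of cohort 1 were all of HSC, 2 of untreated mice, 4 of mice on NR and 3 of mice after withdrawal. The labels do not say whether each library is of a separate mouse. Every group was of old mice, so nothing here compares old with young. The libraries called GMP by their titles carry the name common myeloid progenitor in another label, and GMP markers were high in them, as given further on.

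Mitochondria fuse and divide continually. Mfn1 and Mfn2 tether and join outer membranes, and Opa1 joins inner membranes and shapes cristae. The Opa1 protein is cut constitutively by Yme1l1, and by Oma1 when the membrane potential falls. The balance of long and short Opa1 therefore depends on cleavage of the protein and cannot be read from RNA counts per gene. Division needs Dnm1l (also called Drp1), a cytosolic GTPase that is recruited to the outer membrane by Mff, Fis1 and Mief1 (also called MiD51) and constricts the organelle. Mtfp1 promotes division from the inner membrane. In HSCs, Mfn2 is known for maintaining stem cells with lymphoid potential.

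The sequences just upstream of 4 members are shown first, the 3 fusion GTPases and the fission adaptor Fis1, because their differences between cell types are given library by library further on. Each is the 250 bases before the most upstream RefSeq transcript start of the gene, on mouse build GRCm38.p6 and written 5′ to 3′ on the gene's strand. Capitals mark every match, on either strand, to 6 short motifs: TGCGCA (core of the NRF1 motif), CCGGAA (ETS factors), AAGATGG (YY1), CACGTG (E-box), GGGCGG (GC box of the Sp family) and TGACGT (half-site of the cyclic AMP response element). The Mfn1 window is chr3:32529232-32529481 (plus strand), the Mfn2 window chr4:147904910-147905159 (minus strand), the Opa1 window chr16:29579084-29579333 (plus strand) and the Fis1 window chr5:136953025-136953274 (plus strand).
Mfn1: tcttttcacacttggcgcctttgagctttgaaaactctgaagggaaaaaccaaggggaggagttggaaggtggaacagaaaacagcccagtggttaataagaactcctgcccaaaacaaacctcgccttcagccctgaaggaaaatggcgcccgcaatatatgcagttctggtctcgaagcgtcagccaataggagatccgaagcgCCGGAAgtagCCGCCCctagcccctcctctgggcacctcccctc
Mfn2: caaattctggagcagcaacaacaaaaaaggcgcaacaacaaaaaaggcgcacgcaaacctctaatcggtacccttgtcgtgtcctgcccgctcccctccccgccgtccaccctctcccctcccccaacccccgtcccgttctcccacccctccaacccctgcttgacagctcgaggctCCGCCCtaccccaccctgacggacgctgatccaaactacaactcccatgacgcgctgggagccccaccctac
Opa1: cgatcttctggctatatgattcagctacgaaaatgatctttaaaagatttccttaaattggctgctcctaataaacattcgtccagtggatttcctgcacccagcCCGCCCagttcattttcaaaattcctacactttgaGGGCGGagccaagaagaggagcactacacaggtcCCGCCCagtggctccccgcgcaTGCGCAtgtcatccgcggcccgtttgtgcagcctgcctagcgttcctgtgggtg
Fis1: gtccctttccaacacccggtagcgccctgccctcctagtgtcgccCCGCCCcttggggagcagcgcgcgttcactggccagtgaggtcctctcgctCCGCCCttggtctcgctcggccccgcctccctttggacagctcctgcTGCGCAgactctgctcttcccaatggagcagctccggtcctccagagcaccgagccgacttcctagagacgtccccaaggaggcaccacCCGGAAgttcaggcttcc

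The windows differed in these letters. The NRF1 core stood in the windows of Opa1 and Fis1 and in no other member's, 2 of 10, against 6.4% of all 32851 windows of this length. The ETS letters stood in 4 of 10 (Mfn1, Yme1l1, Fis1 and Mief1), against 12% of all windows, and the GC box in 9 of 10 (all but Mtfp1), against 32.7%. Mief1 alone held the half-site of the cyclic AMP response element (6.5% of all windows). No member held the YY1 letters (4.5%) or the E-box (6%). The GC content of the members' windows ran from 45.6% in Mtfp1 to 69.6% in Mief1, with a median of 52.4% over all windows. A match is a description of letters and was not tested as a binding site.

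Between 4792380 and 18213674 reads per library were counted in cohort 2 and between 8897256 and 23816042 in cohort 1. Levels are given as CPM, counted reads scaled to library size, and levels of different genes are compared as CPM per kb of exon. Every library held reads from genes that blood cells do not use: 1732 olfactory and vomeronasal receptor genes together had 0.185 to 0.425 CPM per exon kb in GMP, 0.300 to 0.5677 in HSC, 0.386 to 0.838 in CLP and 1.118 to 1.97 in cohort 1. This receptor level is set beside the results it moved with. Markers followed the sorts: the summed CPM of 6 HSC markers was 951 to 1836 in HSC of cohort 2 and at most 77.9 in the other cell types, that of 6 CLP markers 1624 to 4493 in CLP and at most 47.0 elsewhere in cohort 2, and that of 6 GMP markers 18173 to 23775 in GMP and at most 523 elsewhere. In cohort 2, markers of other cell types summed to at most the following in CLP, HSC and GMP, in that order: plasma and B cell markers 845, 460 and 130.5 CPM, neutrophil markers 173, 16.2 and 38.0, megakaryocyte markers 21.4, 158 and 133, T cell markers 30.7, 19.4 and 17.6, and red cell markers 14.8, 16.0 and 5.66. Cycling cell markers summed to 113 to 238 CPM in HSC of cohort 2, 1375 to 3464 in CLP and 2372 to 3052 in GMP. In the HSC of cohort 1 the sums reached 1733 CPM for HSC, 101 for CLP, 166 for GMP, 168 for plasma and B cell, 99.2 for neutrophil, 329.7 for megakaryocyte, 54.4 for T cell, 119 for red cell and 654 for cycling markers. In bulk libraries of this kind, fewer cells of a type and less RNA per cell cannot be told apart.

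All 10 genes were measured in each library, and per exon kb Fis1 was highest and Mtfp1 lowest in all 6 groups of cohort 2. In O-WT HSC, Fis1 stood at 15.5 ± 4.61 CPM per exon kb (mean ± SD, n = 4), followed by Dnm1l (14.2 ± 3.84), Mfn2 (12.1 ± 3.40), Opa1 (10.7 ± 2.11), Yme1l1 (9.33 ± 1.79), Oma1 (9.06 ± 1.39), Mfn1 (6.63 ± 1.39), Mff (4.91 ± 1.02), Mief1 (4.202 ± 0.880) and Mtfp1 (2.11 ± 0.262). Each neighbour in this order overlapped the next in range, except Mief1 and Mtfp1, so the order between neighbours is not firm. In O-WT GMP, Fis1 (20.8 to 27.97 CPM per exon kb) overlapped only Mfn2 (18.1 to 21.5) among the other members. Mfn2 was second there, ahead of Dnm1l (16.1 to 20.3) and Opa1 (14.9 to 18.4), whereas in O-WT CLP it was sixth (5.47 to 6.81), below Opa1 (6.81 to 12.04) and Dnm1l (7.38 to 14.2). Mtfp1 rested on the fewest reads, 8 to 203 per library, and its level was between 0.782 and 37.1 times the receptor level of its library, so its low values are close to that background. The other 9 members had at least 100 reads in every library and stood at 1.44 times the receptor level or more (the lowest being Mff in cohort 1).

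**Figure D1:**
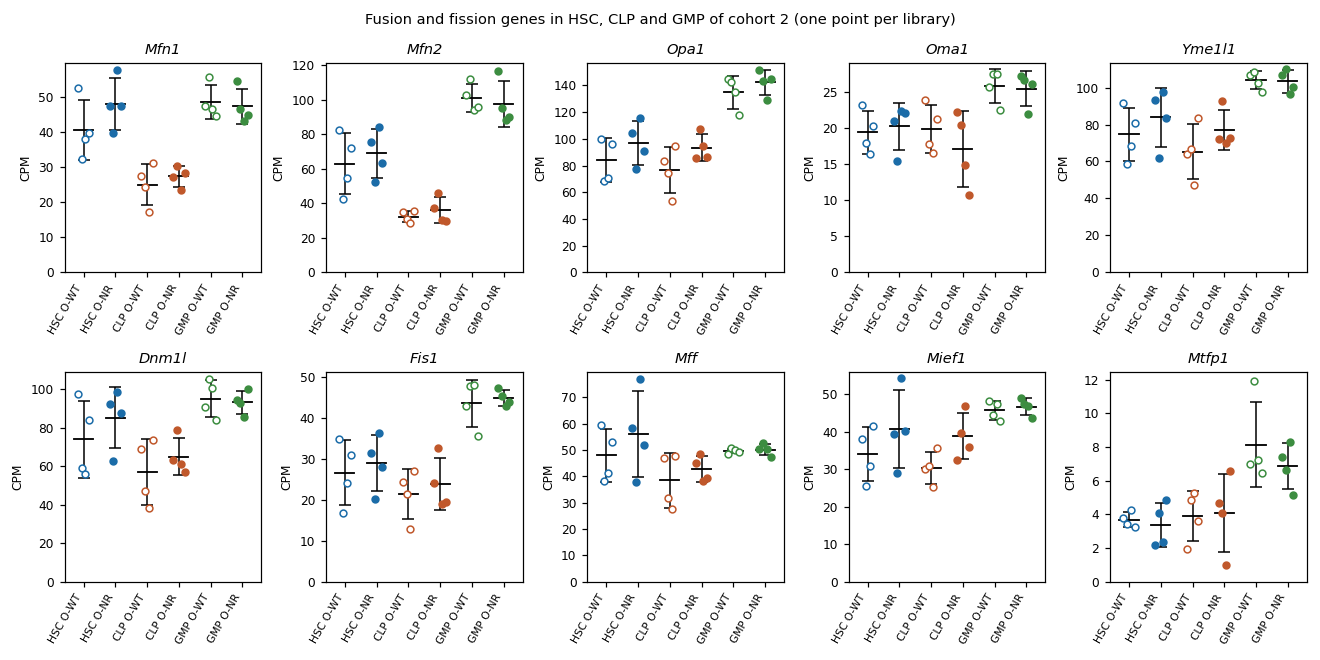
CPM of each of the 10 members (vertical axes, starting at 0) in the 24 libraries of cohort 2, with one point per library, the group mean as a line and the SD as a bar. Within each treatment, GMP libraries sat highest for Mfn2, Opa1 and Fis1, and CLP libraries lowest for Mfn1 and Mfn2.

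Where a member was called against GMP it was higher in GMP, and the mitofusins were the members called between CLP and HSC in both treatments. In O-WT mice, HSC exceeded CLP for 2 of 10 members, Mfn1 and Mfn2, which is the share found among all genes (19.9% of 20044 genes were called higher in HSC). GMP exceeded HSC for 7 of 10 (Mfn2, Opa1, Oma1, Yme1l1, Fis1, Mief1 and Mtfp1; 22.6% of all genes) and CLP for 8 of 10 (all but Oma1 and Mff; 28.6% of all genes). In O-NR mice, HSC exceeded CLP for 3 (Mfn1, Mfn2 and Dnm1l; 22.6% of 18080 genes), and GMP exceeded HSC for 5 (Mfn2, Opa1, Yme1l1, Fis1 and Mtfp1; 24.4%) and CLP for 7 (all but Mff, Mief1 and Mtfp1; 26.1%). A call was an adjusted p below 0.05 in edgeR's quasi-likelihood test, adjusted over all genes tested, and none of the 10 was called in the opposite direction in these 6 comparisons. Same-numbered HSC, CLP and GMP libraries of a treatment may come from one mouse, and with that number as a replicate block the counts were 2, 6 and 9 in O-WT and 2, 5 and 7 in O-NR mice. The shares of all genes in this paragraph are those of the fits without that block. The shares called in the direction opposite to the members were 10.4%, 21.5% and 32.2% of all genes in O-WT mice.

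The size of these counts moved with the scaling between libraries and with single libraries. The median log2 difference of all genes was itself 0.31 for HSC minus GMP and 0.28 for CLP minus GMP in O-WT mice, and upper quartile scaling moved it by a further 0.27 and 0.47. Under TMM, median-of-ratios and upper quartile scaling, the members' median less that of all genes was -0.76 or -0.78 for HSC minus GMP in O-WT mice. For CLP minus GMP it was -1.04 or -1.05. A change of scaling shifts all genes nearly alike, so this gap could hardly move and is no test of the scaling. Under upper quartile scaling 4 members passed as lower in HSC than in GMP and 5 as lower in CLP than in GMP in O-WT mice. Of all 20044 genes, 3727 and 3163 were then called lower, against 4531 and 5737 under TMM. In O-NR mice the member counts were 3 and 4, and Mff passed as higher in HSC than in GMP. Of all 18080 genes, 3680 and 2849 were then called lower, against 4410 and 4724 under TMM, and 5295 were called higher in HSC than in GMP. Without the second O-WT CLP library, GMP exceeded HSC for 4 members rather than 7, and without the first O-NR GMP library for 3 rather than 5. The receptor level also moved with these comparisons, being lowest in GMP and highest in CLP. With it in the model, the O-WT differences between CLP and GMP kept 3 of 8 calls (Mfn1, Mfn2 and Opa1) and those of O-NR mice 4 of 7 (Mfn1, Mfn2, Opa1 and Fis1). Of all genes, those called lower in CLP than in GMP fell from 5737 to 2715 in O-WT and from 4724 to 2300 in O-NR mice. CLP and GMP hardly overlapped in receptor level, so the model cannot well separate that level from cell type. The members' median less that of all genes then shrank in O-WT mice, to -0.30 for HSC minus GMP and -0.34 for CLP minus GMP. In O-NR mice it was -0.21 and -0.34 in that model, against -0.49 and -0.71 without the receptor level. Cycling markers were low in HSC and high in both progenitors, and their part in the result was not tested.

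**Figure D2:**
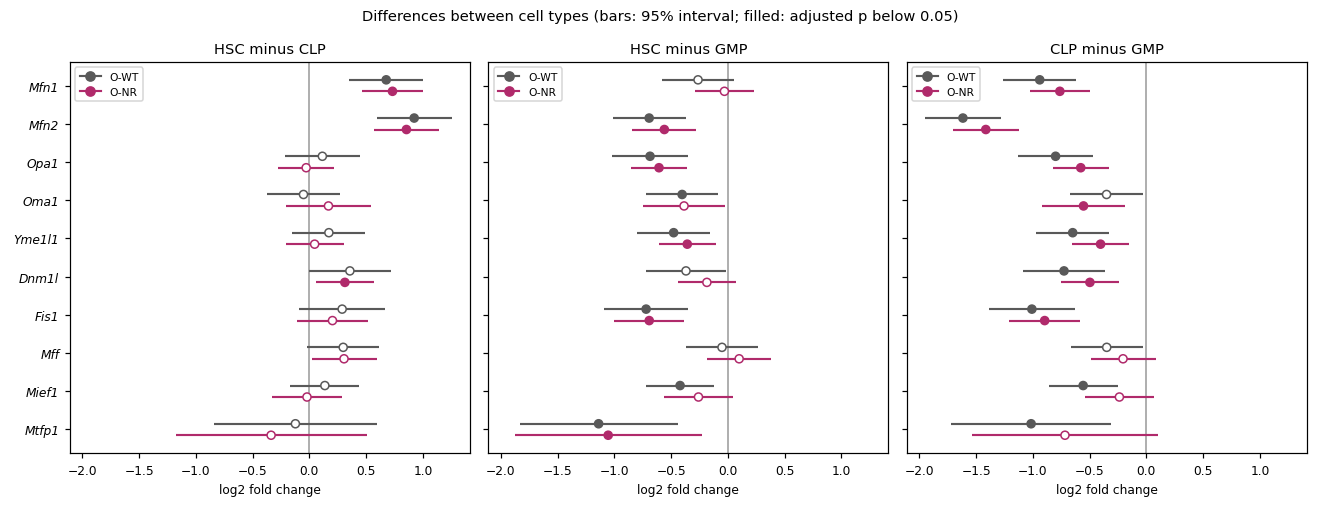
Log2 fold difference of each member between cell types (horizontal axes, first minus second cell type), with 95% intervals and separate marks for O-WT and O-NR mice. Filled marks passed the adjusted p threshold of 0.05, and Mfn2 was filled in all 6 comparisons.

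Mfn2 (chr4:147873599-147904704, minus strand, mm10; a protein-coding gene, as are all 10) was called in all 6 cell type comparisons. In O-WT mice it had 82.4, 42.8, 54.5 and 72.1 CPM in the 4 HSC libraries, 34.7, 30.8, 28.4 and 35.4 in CLP and 103, 112, 94.0 and 95.5 in GMP. In O-NR mice the values were 75.6, 52.3, 84.2 and 63.4 CPM in HSC, 37.5, 46.1, 30.4 and 30.02 in CLP and 117, 94.9, 88.3 and 89.9 in GMP. Within each treatment the 3 cell types did not overlap, with CLP lowest, HSC between and GMP highest. HSC exceeded CLP 1.90-fold in O-WT mice (log2 difference 0.92 ± 0.16 SE, adjusted p = 3.93e-05) and 1.81-fold in O-NR mice (adjusted p = 1.69e-05). GMP exceeded CLP 3.07-fold in O-WT mice (-1.62 ± 0.16 for CLP minus GMP, adjusted p = 7.58e-09) and 2.67-fold in O-NR mice (adjusted p = 9.57e-09). GMP also exceeded HSC, 1.62-fold (adjusted p = 0.000593) and 1.47-fold (adjusted p = 0.00119). These 6 calls held under all 22 alternative settings tried for each, and with the receptor level in the model the difference between CLP and GMP was -1.31 ± 0.15 in O-WT and -1.06 ± 0.14 in O-NR mice.

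Mfn1 (chr3:32529465-32579239, plus strand), the other mitofusin, set CLP apart from both other cell types but did not pass between HSC and GMP. In O-WT mice its CPM was 52.4, 32.4, 37.8 and 39.6 in HSC, 27.3, 24.4, 17.2 and 31.0 in CLP and 47.4, 55.7, 46.5 and 44.6 in GMP. In O-NR mice it was 47.4, 39.6, 57.6 and 47.3 in HSC, 27.2, 30.3, 23.5 and 28.3 in CLP and 54.4, 46.5, 43.2 and 44.7 in GMP. Every CLP library was below every HSC and GMP library of its treatment, whereas HSC and GMP overlapped. HSC exceeded CLP 1.60-fold in O-WT mice (0.68 ± 0.16, adjusted p = 0.00127) and 1.66-fold in O-NR mice (0.73 ± 0.13, adjusted p = 4.5e-05). The O-WT call was lost when genes with low counts were not filtered out. GMP exceeded CLP 1.92-fold (adjusted p = 2.39e-05) and 1.70-fold (adjusted p = 3.21e-05). Between HSC and GMP the log2 difference was -0.26 ± 0.15 in O-WT (95% interval -0.58 to 0.05) and -0.03 ± 0.13 in O-NR mice (-0.29 to 0.23).

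The ratio of the mitofusins differed accordingly. Per exon kb, Mfn1 stood at 0.541, 0.643, 0.589 and 0.4661 times Mfn2 in the O-WT HSC libraries and at 0.533, 0.644, 0.581 and 0.634 times in O-NR HSC. In CLP the ratio was 0.669, 0.673, 0.514 and 0.745 in O-WT and 0.615, 0.558, 0.655 and 0.801 in O-NR mice. In GMP it was 0.391 to 0.423 and 0.396 to 0.422, below every HSC and CLP library of cohort 2. The 9 HSC libraries of cohort 1 lay at 0.415 to 0.502 and overlapped with both GMP and HSC of cohort 2. Subtracting the receptor level from both genes moved the GMP ratio to 0.381 to 0.418, that of CLP to 0.426 to 0.774 and that of cohort 2 HSC to 0.451 to 0.6249, and neither of these overlapped with GMP. It moved cohort 1 HSC to 0.333 to 0.474, which did.

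Opa1 (chr16:29579334-29654884, plus strand) was higher in GMP than in both other cell types. Its CPM in O-WT mice was 100.2, 68.4, 70.9 and 96.3 in HSC, 83.3, 74.7, 53.6 and 94.8 in CLP and 145, 142, 135 and 118 in GMP. In O-NR mice it was 104, 77.5, 115 and 91.2 in HSC, 85.4, 107, 94.8 and 86.4 in CLP and 152, 143, 129 and 145 in GMP. All 8 GMP libraries were above all 16 others, and HSC and CLP overlapped. GMP exceeded HSC 1.61-fold in O-WT (-0.69 ± 0.16, adjusted p = 0.000912) and 1.52-fold in O-NR mice (adjusted p = 0.000132), and CLP 1.74-fold (adjusted p = 0.000236) and 1.49-fold (adjusted p = 0.000368). These 4 calls held under all 22 alternatives each. For HSC minus CLP the difference was 0.11 ± 0.16 (95% interval -0.22 to 0.45) in O-WT and -0.03 ± 0.12 (-0.28 to 0.22) in O-NR mice.

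The proteases that cut Opa1 showed smaller differences. Yme1l1 (chr2:23156369-23199260, plus strand), the constitutive protease, had 58.4 to 91.4 CPM in O-WT HSC, 47.1 to 83.7 in CLP and 97.7 to 108 in GMP. It was 1.39-fold higher in GMP than in HSC (adjusted p = 0.0138) and 1.57-fold higher than in CLP (adjusted p = 0.00131). In O-NR mice the folds were 1.28 (adjusted p = 0.018) and 1.32 (adjusted p = 0.00949). Of 22 alternatives each, 18 and 20 kept the O-WT calls against HSC and CLP, and 14 and 18 those of O-NR mice. With the receptor level in the model both differences from CLP failed (adjusted p = 0.0614 in O-WT and 0.384 in O-NR mice). Oma1 (chr4:103313812-103371868, plus strand), the stress-activated protease, had 16.4 to 23.2 CPM in O-WT HSC, 16.6 to 23.9 in CLP and 22.5 to 27.5 in GMP. It passed for HSC versus GMP in O-WT mice (-0.40 ± 0.15, adjusted p = 0.0357), where 13 of 22 alternatives did not keep it (adjusted p = 0.0533 with the replicate block), and for CLP versus GMP in O-NR mice (-0.55 ± 0.18, adjusted p = 0.0134). For CLP minus GMP in O-WT mice it was -0.35 ± 0.16 (adjusted p = 0.0531), and this uncalled value turned to 0.12 under upper quartile scaling. Neither protease passed between HSC and CLP. Per exon kb the 2 proteases were of similar level in cohort 2. Oma1 was 0.948, 1.14, 0.892 and 0.940 times Yme1l1 in O-WT HSC and 0.858 to 1 times in O-WT GMP, and 0.945 to 1.39 times in O-WT and 0.553 to 1.15 times in O-NR CLP. In HSC of cohort 1 it was 1.08 to 1.24 times in O-WT, 1.101 to 1.70 times in O-NR and 0.842 to 1.47 times in O-NR-RC mice.

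Fis1 (chr5:136953275-136966234, plus strand) was higher in GMP than in both other cell types. Its CPM in O-WT mice was 34.7, 16.7, 24.01 and 30.8 in HSC, 24.3, 21.3, 12.8 and 26.9 in CLP and 42.8, 47.6, 47.9 and 35.6 in GMP. In O-NR mice it was 31.4, 20.2, 36.2 and 27.9 in HSC, 24.01, 32.6, 18.9 and 19.5 in CLP and 47.2, 45.2, 42.9 and 43.9 in GMP. GMP libraries lay above the HSC and CLP libraries of the same treatment, and HSC and CLP overlapped. GMP exceeded HSC 1.65-fold in O-WT (-0.72 ± 0.18, adjusted p = 0.00161) and 1.62-fold in O-NR mice (-0.69 ± 0.15, adjusted p = 0.000356). GMP exceeded CLP 2.01-fold (-1.01 ± 0.18, adjusted p = 6.52e-05) and 1.86-fold (-0.90 ± 0.15, adjusted p = 3.35e-05). The O-WT difference from CLP was the single one of these 4 that failed in an alternative: with the receptor level in the model it was -0.39 ± 0.16 (adjusted p = 0.089).

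Mff (chr1:82724890-82752394, plus strand), an adaptor of Dnm1l, was not called in any of the 6 cell type comparisons. It had 38.0 to 59.3 CPM in O-WT HSC, 27.4 to 47.6 in CLP and 48.6 to 50.7 in GMP. For HSC minus CLP the difference was 0.30 ± 0.15 in O-WT (95% interval -0.02 to 0.62) and 0.31 ± 0.14 in O-NR mice (0.02 to 0.59). The difference between HSC and GMP was -0.05 ± 0.15 in O-WT mice (95% interval -0.37 to 0.26) and 0.10 ± 0.14 in O-NR mice (-0.18 to 0.38), and its sign turned in O-WT mice under upper quartile scaling (0.20). For CLP minus GMP in O-WT mice it was -0.35 ± 0.15 (adjusted p = 0.0521), close to the threshold. It passed in 10 of 22 alternatives, one of them the replicate block (adjusted p = 0.0456), and was 0.11 under upper quartile scaling. Mff shares exonic positions with the antisense transcript C430014B12Rik (9 to 187 reads), from which its reads cannot be told apart without strand. The ratio of Fis1 to Mff per exon kb was 5.02, 5.34, 5.48 and 4.12 in O-WT GMP and 4.83 to 5.36 in O-NR GMP, above the 2.51 to 3.33 of cohort 2 HSC and the 2.67 to 3.85 of CLP. Less the receptor level it was 4.41 to 5.72 in GMP, 2.74 to 3.60 in HSC and 3.16 to 4.42 in CLP, so that CLP and GMP overlapped. HSC of cohort 1 lay at 2.99 to 4.55, and at 4.50 to 10.1 less the receptor level.

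Dnm1l (chr16:16312230-16358959, minus strand), the fission GTPase itself, had 97.4, 58.9, 55.9 and 83.7 CPM in O-WT HSC, 68.8, 47.1, 38.4 and 73.7 in CLP and 90.6, 105, 100.3 and 83.8 in GMP. The GMP libraries lay above the CLP libraries, and HSC overlapped both. GMP exceeded CLP 1.65-fold in O-WT (adjusted p = 0.00128) and 1.41-fold in O-NR mice (adjusted p = 0.00214), and both calls were lost with the receptor level in the model (adjusted p = 0.291 and 0.152). HSC exceeded CLP in O-NR mice (0.31 ± 0.12, adjusted p = 0.0469), a call that 3 of 22 alternatives kept (adjusted p = 0.0886 with the replicate block). Per exon kb the ratio of Opa1 to Dnm1l was 0.679 to 0.837 in HSC of cohort 2, 0.800 to 1.05 in CLP and 0.892 to 1.06 in GMP, so that every GMP library of cohort 2 exceeded every HSC library. It was 0.769 to 1.17 in HSC of cohort 1, which overlapped with all 3 cell types. Dnm1l shares exonic positions with the antisense gene Gm49521, which had at most 50 reads.

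Mief1 (chr15:80234018-80253371, plus strand), which anchors Dnm1l at the outer membrane, had 25.6 to 41.5 CPM in O-WT HSC, 25.2 to 35.6 in CLP and 42.8 to 48.2 in GMP. It was 1.34-fold higher in GMP than in HSC (adjusted p = 0.0203; kept by 13 of 22 alternatives) and 1.47-fold higher than in CLP (adjusted p = 0.00285) in O-WT mice. In O-NR mice its differences were -0.26 ± 0.15 and -0.24 ± 0.15, and neither passed. Mief1 shares exonic positions with the same-strand gene AC140267.1, which had 0 reads in every library. Whether reads from the shared positions went uncounted was not tested. Mtfp1 (chr11:4091480-4095445, minus strand) had 3.77, 3.42, 4.26 and 3.23 CPM in O-WT HSC, 1.91, 4.83, 5.24 and 3.61 in CLP and 6.98, 11.9, 7.22 and 6.47 in GMP. The GMP libraries lay above those of HSC and CLP. GMP exceeded HSC 2.20-fold in O-WT (-1.14 ± 0.34, adjusted p = 0.0072) and 2.08-fold in O-NR mice (-1.05 ± 0.40, adjusted p = 0.0322), and CLP 2.02-fold in O-WT mice (adjusted p = 0.0143). In O-NR mice Mtfp1 ranged from 0.993 to 6.56 CPM in CLP and 5.12 to 8.31 in GMP, which overlapped.

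**Figure D3:**
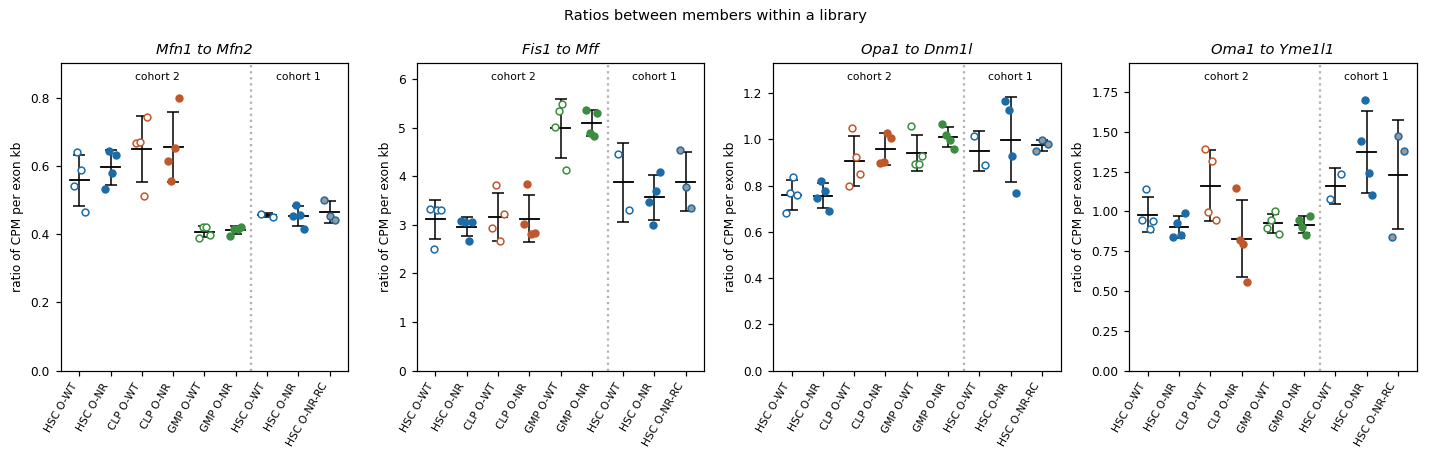
Ratios of CPM per exon kb between pairs of members within each of 33 libraries (vertical axes, no unit), with group means as lines, SD as bars and a dotted line between cohort 2 (left) and cohort 1 (right). Mfn1 to Mfn2 was 0.391 to 0.423 and Fis1 to Mff 4.12 to 5.48 in GMP.

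Other genes of mitochondrial dynamics were examined as 7 lists, and differences given for single genes are log2 ± SE and passed the same test. Of 11 other fission genes, 4 were higher in HSC than in CLP in O-WT mice, 3 were higher and 4 lower in HSC than in GMP, and 2 were higher and 7 lower in CLP than in GMP. These counts stand against 19.9%, 21.5% and 32.2% of all genes called higher and 10.4%, 22.6% and 28.6% called lower in the 3 comparisons. Inf2, a formin that builds actin at division sites, was higher in HSC than in CLP (2.49 ± 0.18) and GMP (1.09 ± 0.17) and lower in CLP than in GMP (-1.40 ± 0.17). Spire1, which works with Inf2 on that actin, was higher in HSC than in GMP (1.33 ± 0.21), and Mtfr1l was higher in HSC than in CLP (1.51 ± 0.19). Dnm2, a dynamin, was lower in CLP than in GMP (-1.09 ± 0.18). In O-NR mice its counts were 4 higher and 1 lower (HSC versus CLP, where 22.6% of all genes were higher and 18.3% lower), 3 and 4 (HSC versus GMP; 22% and 24.4%) and 2 and 5 (CLP versus GMP; 23.9% and 26.1%).

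Of 7 other fusion genes, 6 had enough reads to test. In O-WT mice 1 was higher in HSC than in CLP (Miga1, 0.54 ± 0.15, which acts on outer membrane fusion through a phospholipase), 2 were higher in GMP than in HSC and all 6 were higher in GMP than in CLP. Stoml2, a partner of the prohibitins that stabilizes long Opa1, was lower in HSC (-1.08 ± 0.16) and CLP (-1.14 ± 0.16) than in GMP, and the outer membrane protein Mtch2 likewise (-0.78 ± 0.15 and -0.61 ± 0.15). In O-NR mice 2 were higher and 2 lower in HSC than in CLP, 2 were lower in HSC than in GMP and 5 were lower in CLP than in GMP. Of 6 ubiquitin and SUMO enzymes that act on the fission and fusion proteins, none was called between HSC and CLP in O-WT mice, 1 in each direction between HSC and GMP, and 1 higher and 3 lower in CLP than in GMP. At unadjusted p below 0.05, 1 of the 6 was found between HSC and CLP. Senp5, a SUMO protease of Dnm1l, was lower than in GMP both in HSC (-1.13 ± 0.15) and in CLP (-0.86 ± 0.15). In O-NR mice the 3 comparisons held 2 higher and 0 lower, 2 and 1, and 1 and 2 of these enzymes. The called counts of both lists stand against these shares of all genes, in the same order of comparisons. In O-WT mice 19.9%, 21.5% and 32.2% were called higher and 10.4%, 22.6% and 28.6% lower. In O-NR mice 22.6%, 22% and 23.9% were called higher and 18.3%, 24.4% and 26.1% lower.

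In the remaining lists every call against GMP was toward higher levels in GMP. Of 9 inner membrane proteases and prohibitins, 8 were lower in HSC than in GMP in O-WT mice (22.6% of all genes) and 9 lower in CLP (28.6% of all genes), and 7 and 9 in O-NR mice (24.4% and 26.1% of all genes), with medians of -1.14 and -1.28 in O-WT mice. Phb2, a prohibitin that scaffolds the inner membrane, was lower in HSC by a log2 difference of -1.49 ± 0.19, and Lonp1, a matrix protease, was lower in CLP (-1.67 ± 0.19). Between HSC and CLP 3 were higher in HSC, Afg3l2 (0.66 ± 0.16), Clpp (0.61 ± 0.18) and Lonp1 (0.54 ± 0.19), against 1 in O-NR mice. Of all genes, 19.9% in O-WT and 22.6% in O-NR mice were called higher in HSC there. Of 11 genes of the cristae-organizing MICOS complex and its partners, 8 were lower in HSC than in GMP and 8 lower in CLP than in GMP in O-WT mice (9 and 8 in O-NR mice), and its core subunit Immt was among them in each (-1.07 ± 0.17 and -1.18 ± 0.17). Of 4 transport genes, 1 was lower in HSC (Trak1, -0.68 ± 0.18) and 3 in CLP than in GMP in O-WT mice (1 and 1 in O-NR mice). The shares given for the proteases apply to each list against GMP. They were 22.6% and 28.6% of all genes in O-WT and 24.4% and 26.1% in O-NR mice. The 9 outer membrane channel and import genes, listed as a reference for mitochondrial mass, were all lower in HSC and in CLP than in GMP in both treatments, with O-WT medians of -1.14 and -1.05. Tomm40, the import pore, was lower by -1.69 ± 0.18 and -1.55 ± 0.18. The medians of the 10 fusion and fission genes were -0.45 and -0.76 in the same comparisons, and those of all genes 0.31 and 0.28. Between HSC and CLP the medians were 0.23 for the 10 genes, -0.13 for the outer membrane list and -0.08 for all genes in O-WT mice. The share of mitochondrially encoded reads was not highest in GMP. In O-WT mice it was 7.66% to 9.28% in GMP, 10.4% to 11.1% in HSC and 8.68% to 11.3% in CLP. Mitochondrial content itself was not tested.

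NR did not shift these genes detectably in any cell type. None of the 10 members was called between O-NR and O-WT mice in HSC, CLP or GMP of cohort 2, by edgeR's quasi-likelihood test or by DESeq2, and none had an unadjusted p below 0.05 in either, where 4.06%, 3.21% and 4.83% of all genes did in edgeR. Mfn2, for example, had 68.9 ± 13.96 CPM in treated and 63.0 ± 17.7 in untreated HSC (SD, n = 4 each), and the log2 difference was 0.06 ± 0.11 (95% interval -0.18 to 0.30). Mfn1 had the smallest p in HSC (0.17 ± 0.10, interval -0.04 to 0.38, adjusted p = 0.995). The groups overlapped for all 10 members in all 3 cell types. Of all genes, only 1.21% in HSC, 2.32% in CLP and 2.10% in GMP had groups that did not overlap.

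What sizes remained possible differed by cell type. In GMP, the intervals of the 9 members other than Mtfp1 all lay within -0.24 to 0.22 on the log2 scale. In HSC they lay within -0.30 to 0.43, and in CLP within -0.75 to 0.64. For Mtfp1 they were -1.05 to 0.69 in HSC, -1.03 to 0.95 in CLP and -0.74 to 0.25 in GMP. The largest estimates were -0.30 ± 0.22 for Oma1 (adjusted p = 1) and 0.27 ± 0.18 for Mief1 (adjusted p = 1), both in CLP. Oma1 in O-NR CLP had 22.2, 20.4, 14.9 and 10.8 CPM against 23.9, 17.7, 16.6 and 21.2 in O-WT, and the groups overlapped. Whether the effect of NR differed between cell types was tested directly, and no member passed or had an unadjusted p below 0.05 in any of the 3 contrasts (HSC minus CLP, HSC minus GMP and CLP minus GMP; 2.3%, 1.41% and 2.9% of all genes did). The 7 lists of related genes held no call either for NR within a cell type or for these contrasts. At an unadjusted p below 0.05 the lists held 1 gene for NR in HSC (Spire1, 0.34 ± 0.11) and 1 in CLP (Mtfr1l, 0.55 ± 0.19). In GMP they held 4 (Miga2, -0.30 ± 0.13, Senp5, -0.20 ± 0.08, Mtx2, 0.25 ± 0.11, and Vdac2, 0.16 ± 0.07), and none for the 3 contrasts. Of all genes, 4.06% in HSC, 3.21% in CLP and 4.83% in GMP had such a p for NR. The genes given here were named after their values were seen.

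**Figure D4:**
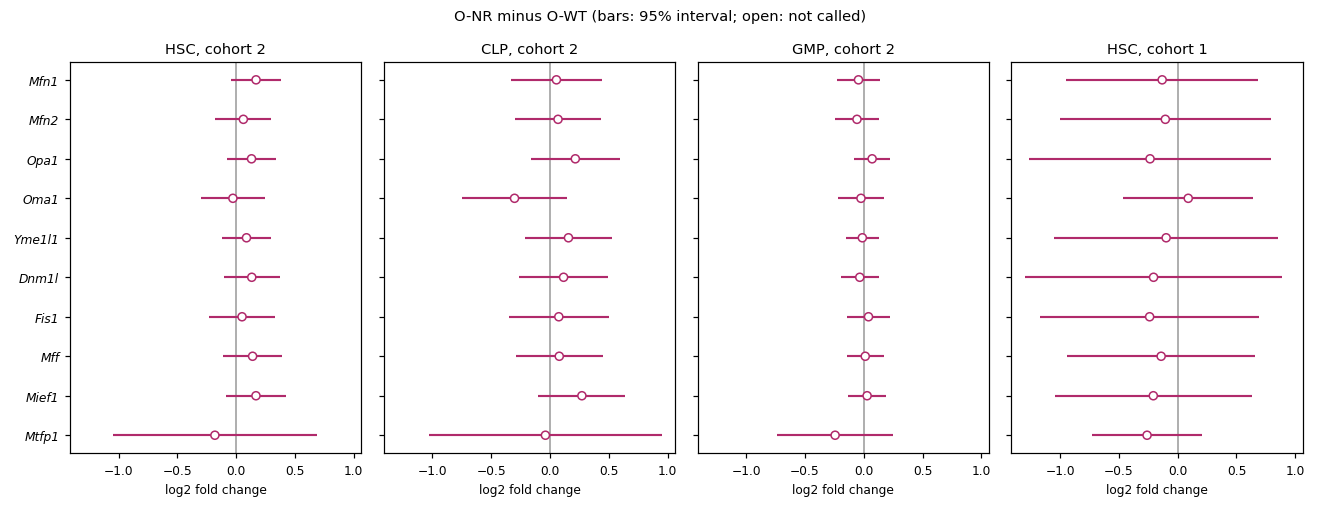
Log2 fold change of each member with NR (O-NR minus O-WT, horizontal axes) in HSC, CLP and GMP of cohort 2 and in HSC of cohort 1, with 95% intervals. All marks are open, so no member passed, and for the 9 members other than Mtfp1 the intervals were narrowest in GMP and widest in cohort 1.

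In cohort 1 HSC the members varied widely within groups. Mfn2 had 90.4 and 85.3 CPM in the 2 O-WT libraries, 63.7, 60.9, 96.7 and 105 in O-NR and 112, 55.2 and 62.1 in O-NR-RC. Dnm1l had 75.4 and 66.5 in O-WT, 39.2, 38.4, 72.4 and 96.2 in O-NR and 107, 38.6 and 37.6 in O-NR-RC. In both genes the first 2 O-NR libraries and the last 2 O-NR-RC libraries were the low ones, and these 4 had the highest receptor levels of the cohort (1.87 to 1.97 CPM per exon kb, against 1.118 to 1.58 in the other 5). Their share of mitochondrially encoded reads was also the lowest, 4.59% to 5.29% against 6.69% to 8.14%, and the part of this share in the members' levels was not tested. Mtfp1 did not follow them, with 8.88, 10.6, 10.4 and 8.41 CPM in O-NR and 7.26, 9.20 and 8.11 in O-NR-RC. A model with the receptor level as a term is given with the tests.

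No member was called for NR, for withdrawal against NR, or for withdrawal against O-WT in cohort 1, where 0.546%, 0.291% and 0.795% of all genes had an unadjusted p below 0.05 in edgeR and none of the 10 did. DESeq2 also called none, with 1 member at an unadjusted p below 0.05 for withdrawal against O-WT. For Mfn2 the intervals were -1.004 to 0.79, -0.89 to 0.70 and -1.15 to 0.75 on the log2 scale. The member closest to the threshold was Mtfp1, at -0.49 ± 0.23 for O-NR-RC minus O-WT (95% interval -0.99 to 0.01, adjusted p = 1), with 7.26, 9.20 and 8.11 CPM against 10.2 and 12.8. In a model with 1 factor of unwanted variation estimated from the residuals, 1 member passed for NR (Dnm1l) and 5 for withdrawal against O-WT (Opa1, Dnm1l, Fis1, Mff and Mtfp1), all lower than in O-WT, while 2570 and 3960 genes passed in all. With the receptor level as a term in place of that factor, no member passed.

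**Figure D5:**
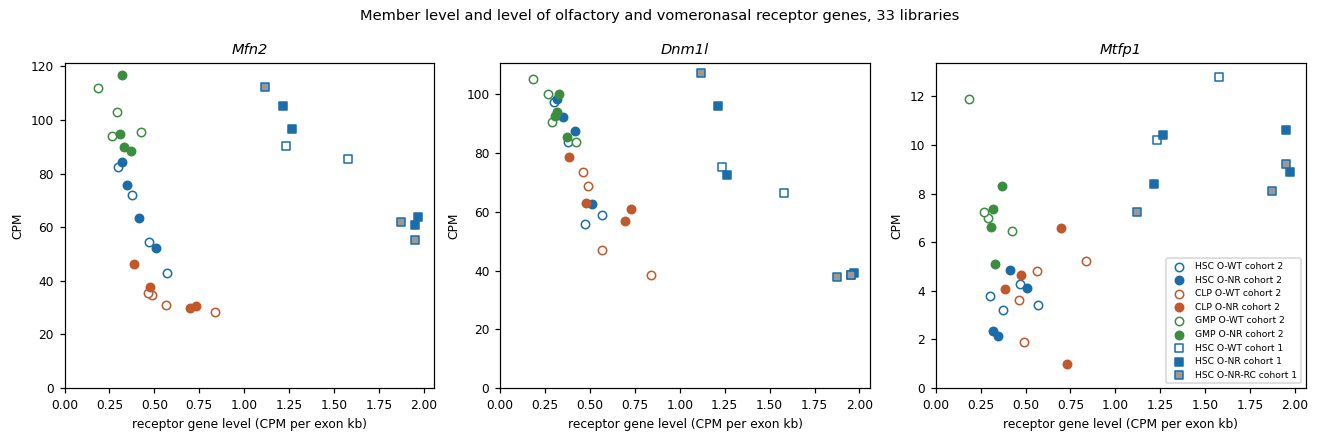
CPM of Mfn2, Dnm1l and Mtfp1 (vertical axes) against the summed level of olfactory and vomeronasal receptor genes (horizontal axes, CPM per exon kb) in 33 libraries, with circles for cohort 2, squares for cohort 1 and colours for cell types. The 4 cohort 1 libraries with receptor levels of at least 1.87 had the lowest CPM of Mfn2 and Dnm1l in that cohort, but not of Mtfp1.

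Over both cohorts, with cohort as a term, the HSC differences with NR ran from -0.18 (Mtfp1) to 0.08 (Mfn1) and none was called (0.923% of all genes had an unadjusted p below 0.05, and none of the 10). The effect in cohort 1 minus that in cohort 2 was also called for none (1.91% of all genes at an unadjusted p below 0.05, and none of the 10), with -0.37 ± 0.35 for Mfn1, -0.44 ± 0.39 for Opa1 and -0.45 ± 0.38 for Mief1. DESeq2 called none in either. With the replicate number as a block, 6 members passed for the difference between cohorts (Mfn1, Opa1, Yme1l1, Dnm1l, Fis1 and Mief1, between -0.75 and -1.13), together with 4751 genes. In that fit O-NR libraries 3 and 4 of cohort 1 have no O-WT library of their number. Its cohort 1 effect therefore rests on O-NR libraries 1 and 2, whose receptor levels were among the highest of the cohort. Nothing in the labels says that same-numbered libraries of different treatments shared a litter or day.

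Within each group of cohort 2, the library with the highest receptor level was also the lowest in 5 to 9 of the 10 members. It was lowest for 7 of 10 members in O-WT HSC (library 2), 9 in O-NR HSC (library 2) and 9 in O-WT CLP (library 3). In O-NR CLP it was lowest for 5 (library 3), in O-WT GMP for 8 (library 4) and in O-NR GMP for 7 (library 3). Each of these libraries except that of O-NR GMP was also the shallowest of its group. Their depths, in the order above, were 8434214, 9022496, 4792380, 7034189 and 11755798 reads. The parts of depth and receptor level were not tested. Over the 24 libraries of cohort 2 the 45 pairs of members had Pearson correlations of log2 CPM from -0.04 to 0.96 with a median of 0.76, with Dnm1l nearest to the others (median 0.87) and Mtfp1 farthest (median 0.34). These points share cell type, library scaling and background, and no test was made.

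Over the same 24 libraries, the genes most like each member among 22573 were found by the same correlation. They were Itgb1, Spn and Nomo1 for Mfn1 (r = 0.98), Emilin1, Nucb1 and Aldoa for Mfn2 (0.98 to 0.99), Fam120a, Ddb1 and Arpc2 for Opa1 (0.98) and Impdh2, Gcn1l1 and Rpsa for Fis1 (0.98 to 0.99). For Yme1l1 they were Ap2a1, Stk26 and Rab5c (0.97 to 0.98), for Dnm1l Tor1b, Ecpas and Trip12 (0.97), for Oma1 Adnp2, Slc7a6os and Atp13a1 (0.91), for Mff Tnrc6b, Kdm2a and Prkacb (0.94 to 0.95) and for Mief1 Fam172a, Braf and Ppp6c (0.93 to 0.94). Mtfp1 had the weakest likeness, to Mgl2, Psmg3 and Ms4a2 (0.81 to 0.83). No member was among another member's 3 nearest genes.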

How the data were processed

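Gene counts were used as the authors deposited them: per the study's methods, reads were trimmed with Trim Galore and Cutadapt, aligned to mm10 with STAR and counted per gene of Gencode M22 with featureCounts. The strand setting and the treatment of multi-mapping reads are not given in the sources used here. Genes were tested where the number of libraries above 3 CPM reached the size of the smallest group, with edgeR 4.0.16 (TMM, quasi-likelihood test, Benjamini-Hochberg over all genes; R 4.3.3), with DESeq2 1.42.0 as an alternative. Cell types were compared within each treatment of cohort 2 and NR within each cell type. CPM were scaled separately in each cohort. Exon lengths came from Gencode M21. The members, gene lists and tests were chosen with earlier results of these data known, and the genes named outside the members were up to 3 per list and O-WT cell type comparison with the smallest p, and the 3 most correlated with each member. Models with the receptor level were added after the data were seen. Nothing says how mice were housed or batched, so p-values measure only the spread between these samples. File names, but not the labels, carry one animal number for same-numbered HSC, CLP and GMP libraries of cohort 2, so these may be from one mouse. The reported fits have no block, and fits with the number as a block are given beside the results they change. For the cell types, deviations from group means had a mean correlation of -0.02 (O-WT) and -0.03 (O-NR) between equal numbers and 0.01 between others. No pair of libraries was a duplicate, but some of cohort 1 were close in their counts. By chi-square per degree of freedom, O-NR libraries 1 and 2 differed by 1.91 and 3 and 4 by 3.65. Across these pairs the values were 48.6 to 66.8. O-NR-RC libraries 2 and 3 differed by 3.76, and from library 1 by 92.7 and 66.8. Precision follows the counted reads, 4792380 to 23816042 per library. On simulated data for HSC with and without NR, a log2 change of 0.5 was recovered in 15.1% and of 1.0 in 64.3% of 200 changed genes. The values of 1 gene of the ubiquitin and SUMO list are not reported here.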

Additional observations from a re-analysis of the deposited data

Results flagged for a closer look

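Of 98 groups of 4 libraries examined, 4 held a value far from the other 3, where chance gives about 5% of groups. Yme1l1 had 92.8 CPM in library 2 of O-NR CLP, and the nearest other library had 72.6. Mtfp1 had 11.9 CPM in library 2 of O-WT GMP, against 7.22 in the nearest. The ratio of Fis1 to Mff was 2.51 in library 2 of O-WT HSC, against 3.31 in the nearest, and 2.67 in library 3 of O-NR HSC, against 3.05.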

How the results depend on the processing

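No value called in the report changed sign under any alternative run. In O-WT mice, members called between HSC and CLP numbered 1 with no filter on low counts and 5 with a factor of unwanted variation. Those between HSC and GMP numbered 4 under upper quartile scaling, 4 with no filter and 4 with the filterByExpr filter, and those between CLP and GMP 5 under upper quartile scaling and 3 with the receptor level. In O-NR mice CLP versus GMP gave 4 under upper quartile scaling and 4 with the receptor level. The numbers of all genes called against GMP at these settings are given with the results, and those for the filters are not given. In cohort 1 the unwanted-variation factor gave 1 member for NR and 5 for withdrawal against O-WT, with 2570 and 3960 genes called where the reported model called 0, and 20 genes for withdrawal against NR. The causes were not tested.

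With each library left out in turn, members called ranged from 2 to 2 (HSC versus CLP), 4 to 8 (HSC versus GMP) and 7 to 10 (CLP versus GMP) in O-WT mice, from 2 to 4, 3 to 6 and 6 to 7 in O-NR mice, and stayed at 0 in the NR and withdrawal comparisons. With the replicate number as a block, the pairing gave 2, 6 and 9 calls in O-WT and 2, 5 and 7 in O-NR mice for the same cell type comparisons, and 6 for the difference in NR effect between cohorts, where 4751 genes were called. The fit between cohorts leaves O-NR libraries 3 and 4 of cohort 1 without an O-WT library of their number. Under upper quartile scaling the share of called genes that were higher moved from 65.7% to 48.8% (HSC versus CLP, O-WT), from 48.8% to 62.1% and 47.5% to 59% (HSC versus GMP, O-WT and O-NR) and from 52.9% to 76.5% and 47.8% to 72.6% (CLP versus GMP). With the receptor level it was 40.4% for CLP versus GMP in O-WT mice. DESeq2 called 7 genes for NR in HSC and 10 in GMP, where edgeR called 0. Depth limits Mtfp1 most, at 8 reads in the lowest library.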
